A study of Homo sapiens with 100 samples.

Results

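The mitochondrial genome transcripts were the rows of the deposited gene count table whose gene name starts with MT-. There were 37 such rows among 78894 gene identifiers: 13 messenger RNAs, 2 ribosomal RNAs and 22 transfer RNAs. The study followed single-cell clones of TMD8, an established cell line from an activated B-cell-like diffuse large B-cell lymphoma whose growth relies on the kinase BTK, which relays signals from the B-cell receptor. The clones were either wild type (WT, 5 clones) or carried the BTK substitution A428D at the endogenous locus (6 clones). Each clone was exposed for 24 h to DMSO as vehicle, to zelebrudomide or bexobrutideg (degraders of BTK), to pomalidomide (a cereblon-binding drug), to venetoclax (an inhibitor of BCL2), or to venetoclax together with 1 of the other 3 agents, which gave 88 libraries in 16 groups. A second set held 12 untreated libraries, 11 of them from the same clones and 1 from parental TMD8 cells. The sources used here give no doses. All cells grew in alpha MEM with nucleosides, serum and antibiotics, and every library was a 3′ library of poly(A) RNA, so the ends of polyadenylated transcripts were what was read.

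The human mitochondrial genome is a small circle that is copied into RNA from both strands as long polycistronic transcripts. Transfer RNAs lie between most of the coding genes, and their excision by the mitochondrial RNase P and ELAC2 releases the messenger and ribosomal RNAs. The mitochondrial poly(A) polymerase then adds a short tail to most of the messenger RNAs, which in several of them completes the stop codon. Heavy-strand transcription yields both ribosomal RNAs, 12 of the messenger RNAs and 14 transfer RNAs, whereas light-strand transcription yields MT-ND6 and 8 transfer RNAs. The 13 proteins are subunits of respiratory complexes I, III and IV and of the ATP synthase, complex V, and are assembled with many more subunits encoded in the nucleus. In lymphocytes and lymphomas the mitochondrial outer membrane is also the site at which BCL2 holds apoptosis in check.

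The sequences below are the last 30 bases of the messenger RNAs that the results turn on, as annotated and read from GRCh38, because they show which genes close inside a codon and which meet or overlap a neighbour. They are gene ends and not always RNA ends: MT-ATP8 and MT-ND4L run on into the next gene on the same messenger, and the RNAs of MT-CO1, MT-ND5 and MT-ND6 extend past the coding sequence. Capitals mark the last codon, complete or not. In 6 of the 13 messenger RNAs the annotated gene ends inside that codon.
MT-ND6: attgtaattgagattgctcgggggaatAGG
MT-CO1: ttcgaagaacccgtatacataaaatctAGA
MT-ND5: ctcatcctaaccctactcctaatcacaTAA
MT-ND1: tacaatctccagcattccccctcaaaccTA
MT-CO3: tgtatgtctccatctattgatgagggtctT
MT-ATP8: tcgcttcattcattgcccccacaatccTAG
MT-ND4L: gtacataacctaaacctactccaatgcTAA
MT-ND6 lies on the light strand and its last bases are at chrM:14149-14178 (minus strand). The plus-strand ends are at chrM:7416-7445 for MT-CO1, chrM:14119-14148 for MT-ND5, chrM:4233-4262 for MT-ND1, chrM:9961-9990 for MT-CO3, chrM:8543-8572 for MT-ATP8 and chrM:10737-10766 for MT-ND4L. MT-ND5 and MT-ND6 therefore end on adjacent bases of opposite strands. MT-ATP8 and MT-ND4L share bases with the genes that follow them, and the overlaps are printed with the first codon of the second gene and the stop codon of the first in capitals.
MT-ATP8 and MT-ATP6: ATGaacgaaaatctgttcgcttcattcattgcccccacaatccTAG
MT-ND4L and MT-ND4: ATGcTAA
The MT-ATP8 and MT-ATP6 frames overlap by 46 bases (chrM:8527-8572), and those of MT-ND4L and MT-ND4 by 7 bases (chrM:10760-10766). Each of these pairs is carried on 1 bicistronic messenger, so how counts fell to either gene of a pair depended on the authors' counting.

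Libraries of the 24 h set held 1476519 to 9388855 gene counts, and the untreated libraries held 10400854 to 12501775. The library of WT clone 3 under bexobrutideg with venetoclax was the shallowest and stood apart in its mitochondrial counts: MT-CO2 was at 1357 CPM (counts scaled to a library total of 1e6) there and at 4404 to 4770 CPM in the other 4 libraries of its group. Summed B-cell markers were at 1771 to 3466 CPM in every library, against 0.273 to 6.99 CPM for T-cell markers and 0 to 2.28 CPM for myeloid markers. The A428D sample titles carry the gene name SF3B1 beside A428D, whereas the design and growth text name BTK, and 3′ counts cannot check the base. Fractional values made up 76.4% of the mitochondrial values and 8.76% of the values of all genes. The 405 nuclear pseudogenes of mitochondrial genes took 0.336 to 0.620% of a library. Among messenger RNAs, the pseudogene counts were highest for MT-ND1, where they made up 32.9% of the gene and pseudogene counts together, and they were 16.5% for MT-CO1, so these genes are reported as uncertain in level. The strand setting of the counting is not given in the sources used here. Without it, light-strand genes and the heavy-strand RNA that runs antisense to them cannot be told apart.

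Most mitochondrial counts came from a few genes. The 13 messenger RNAs held 64.3% of the mitochondrial counts over all libraries, the 2 ribosomal RNAs 35.4% and the 22 transfer RNAs 0.297%. MT-RNR2, the RNA of the large mitochondrial ribosomal subunit, alone held 29.96%, and MT-CO3, a core subunit of cytochrome c oxidase, 20.3%. The 9 light-strand genes held 0.156% together, between 0.069 and 0.855% in single libraries.

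Compared per length, as mean CPM per kilobase over the 24 h libraries, MT-CO3 had the highest level (20127), followed by MT-RNR2 (16513), MT-ND3 (9958), MT-ATP6 (8124), MT-ND4 (6786) and MT-CO2 (6637). The small-subunit ribosomal RNA MT-RNR1 stood at 4758 CPM per kilobase, and MT-ND1, MT-CYB and MT-ND2 at 3792, 3168 and 3119. Among the messenger RNAs the lowest levels were those of MT-ND5 (339) and MT-ND6 (227). The highest transfer RNA was MT-TL1, for leucine, at 1077 CPM per kilobase, above MT-CO1 at 890, and the lowest of all 37 was MT-TL2, the other leucine transfer RNA, at 7.70. In a 3′ library this scale describes counts and not molecules. Whether counts at transfer RNA genes came from excised transfer RNAs or from longer transcripts that hold them was not tested. Levels and changes given here for transfer RNAs are those of the counts. Within the bicistronic pairs, MT-ATP8 was at 1715 CPM per kilobase beside MT-ATP6 at 8124, and MT-ND4L at 659 beside MT-ND4 at 6786. Ranked anew by their means over the 11 DMSO libraries, an order in which some neighbours trade places (MT-CO2 above MT-ND4), 33 of the 36 pairs of neighbours had overlapping ranges. The exceptions were MT-ND2 above MT-ATP8, MT-ATP8 above MT-TL1 and MT-ND5 above MT-TY.

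The summed share of the mitochondrial genome in a library was 6.24 to 10.5% in the 24 h set and 8.94 to 11.1% in the untreated set. Under DMSO the 5 WT libraries, clones 1 to 5, were at 8.11, 9.07, 8.50, 7.30 and 8.24%. With zelebrudomide and venetoclax the same clones were at 10.1, 10.2, 9.89, 9.41 and 10.3%. The lowest of these lay above the highest DMSO value, and every clone was higher than under DMSO. The mean was 9.98 ± 0.348% (SD, n = 5) against 8.24 ± 0.642% (SD, n = 5), a difference of 1.73 percentage points, with p = 0.00794 by a two-sided exact permutation test, which is the smallest that 5 against 5 allows, and an adjusted p of 0.0587 over the 37 comparisons of this share. It missed the threshold of 0.05, as did every other comparison of the share. The difference was 1.08 points with pomalidomide and venetoclax (exact permutation p = 0.0317, adjusted 0.147, higher in 5 of 5 clones) and 0.936 points with zelebrudomide alone (p = 0.0397, adjusted 0.163, higher in 5 of 5 clones, same exact test). Bexobrutideg alone differed from DMSO by 0.795 points in WT cells (exact permutation p = 0.0714, adjusted 0.220, higher in 5 of 5 clones). Venetoclax alone differed by 0.111 points and pomalidomide alone by 0.118 points, each with 3 of 5 clones higher.

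The A428D libraries under DMSO, clones 1 to 6, were at 8.88, 7.65, 6.62, 6.51, 7.53 and 7.24%, and with zelebrudomide and venetoclax at 9.12, 8.74, 7.28, 7.12, 7.51 and 6.83%. These groups overlapped over most of their range, with 4 of 6 clones higher and a difference of 0.363 points (exact permutation p = 0.496, adjusted 0.783). Over the 7 treatments the A428D differences ran from -0.034 to 0.655 points. Set against each clone's own DMSO library, the change with zelebrudomide and venetoclax was 0.363 ± 0.533 points in A428D (SD, n = 6) and 1.73 ± 0.446 points in WT (SD, n = 5). This difference in response was -1.37 points (two-sided exact permutation p = 0.00433, adjusted 0.0587). In bulk samples, fewer cells with many mitochondrial transcripts and less mitochondrial RNA per cell cannot be told apart, nor can more mitochondrial RNA and less nuclear RNA.

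**Figure D1:**
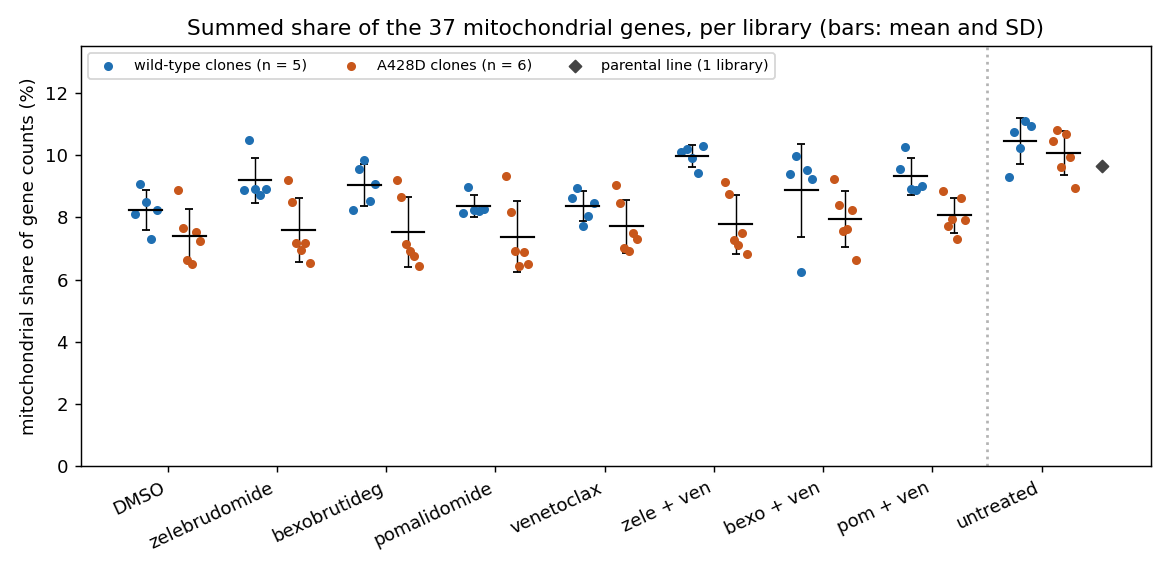
Summed mitochondrial share of gene counts (percent, vertical axis) in every library, by group (horizontal axis), with points for clones, a diamond for the parental line, and bars for the group mean and SD. In WT cells with zelebrudomide and venetoclax, all 5 libraries (9.41 to 10.3%) lie above the 5 DMSO libraries (7.30 to 9.07%), and the A428D groups of the 24 h set overlap one another.

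Split by class, the WT difference with zelebrudomide and venetoclax was larger for the ribosomal than for the messenger RNAs. The rRNA share was 3.04, 3.37, 3.00, 2.34 and 2.83% under DMSO and 4.35, 4.63, 4.80, 3.97 and 4.75% with the combination. These groups did not overlap. The messenger RNA share was 5.30 ± 0.306% under DMSO and 5.44 ± 0.246% with the combination (SD, n = 5 each). In A428D cells the rRNA share was 2.52 ± 0.330% under DMSO and 2.68 ± 0.431% with the combination (SD, n = 6 each). The classes were tested apart, a split chosen after seeing the data, by the two-sided exact permutation test with adjustment over 37 comparisons for each class. The rRNA difference was 1.58 points in WT (p = 0.00794, adjusted 0.0367, higher in 5 of 5 clones), and the mRNA difference 0.141 points (exact permutation p = 0.429, adjusted 0.984). In WT the rRNA share was also higher with pomalidomide and venetoclax than with DMSO (0.806 points, exact permutation p = 0.00794, adjusted 0.0367). Set against each clone's own DMSO library, the rRNA response was lower in A428D than in WT with zelebrudomide (-0.687 points), with zelebrudomide and venetoclax (-1.42 points) and with pomalidomide and venetoclax (-0.517 points). Each of these 3 had p = 0.00216 by the exact permutation test, the smallest that 6 against 5 allows, and an adjusted p of 0.0267.

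Single genes were tested with edgeR across all genes, with adjusted p under 0.05 as the threshold. Of the 37 genes, 34 passed the filter on low counts in the 24 h set, and MT-TD, MT-TR and MT-TL2 did not. All log2 changes below are from this fit, with standard errors.

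In WT cells MT-RNR2 rose with zelebrudomide and with each of the 3 venetoclax combinations. Under DMSO it was at 25688, 28659, 25291, 19440 and 23414 CPM in clones 1 to 5, and with zelebrudomide and venetoclax at 37489, 39550, 42105, 33800 and 41400 CPM, with no overlap. The log2 change of MT-RNR2 was 0.77 ± 0.14 (SE, adjusted p = 1e-05), and it passed under all 19 alternatives tried. With bexobrutideg and venetoclax the 5 values were 32434, 36046, 21979, 33797 and 31971 CPM. The shallow library of clone 3 lay below 4 of the 5 DMSO values and the other 4 above all of them. The MT-RNR2 change was 0.38 ± 0.14 there (adjusted p = 0.0354) and 0.36 ± 0.14 with pomalidomide and venetoclax (adjusted p = 0.0295). With zelebrudomide alone MT-RNR2 was at 29150, 41421, 29402, 28492 and 28543 CPM, a log2 change of 0.43 ± 0.14 (adjusted p = 0.0351). Clone 2 was far above the other 4 libraries, and without WT clone 1, 2, 4 or 5 in turn the adjusted p was 0.0608, 0.156, 0.128 and 0.0865. The calls with bexobrutideg and venetoclax also failed without WT clone 1, 2, 4 or 5 (adjusted p 0.0611 to 0.187), and those with pomalidomide and venetoclax without WT clone 4 or 5 (0.0771 and 0.0577). The 4 treatments share the DMSO libraries, so these changes are not independent.

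**Figure D2:**
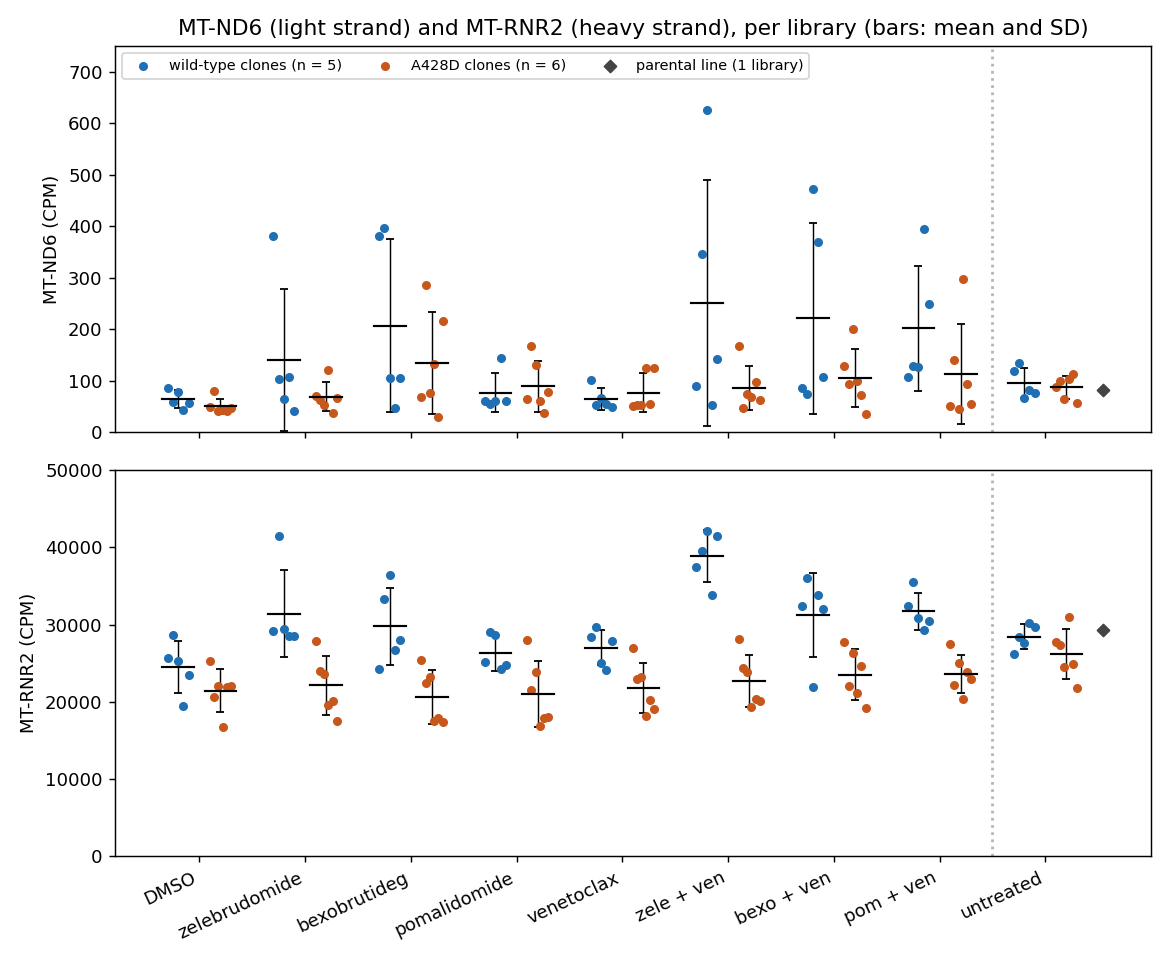
MT-ND6 (top) and MT-RNR2 (bottom) in CPM (vertical axes) in every library by group (horizontal axis), with points for clones, a diamond for the parental line, and bars for the group mean and SD. MT-RNR2 under zelebrudomide with venetoclax in WT cells (33800 to 42105 CPM) does not overlap DMSO (19440 to 28659 CPM), and MT-ND6 spreads from 52.8 to 626 CPM within that one treated group.

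With zelebrudomide and venetoclax, 8 of 34 mitochondrial genes rose and 0 fell in WT cells, beside 23.4% of all genes tested, so the share called was close to the background. Their median log2 change was 0.35, against -0.01 over all genes tested, and 33 of 34 were above 0. Beside MT-RNR2, the messenger RNAs called were MT-ND6 (below), MT-CO1 (0.48 ± 0.15, adjusted p = 0.0104), the catalytic core of complex IV, and MT-ND5 (0.51 ± 0.17, adjusted p = 0.0189), a membrane subunit of complex I. MT-CO1 was at 1262 to 1451 CPM under DMSO and at 1594 to 1916 CPM with the combination. MT-ND5 was at 524 to 689 CPM under DMSO and at 757 to 836 CPM with the combination. Neither gene's groups overlapped. The transfer RNAs called were MT-TS2 and MT-TL1 (for serine and leucine), MT-TH (histidine) and MT-TP (proline). MT-TL1 rose by 0.47 ± 0.13 (adjusted p = 0.00408), MT-TH by 0.35 ± 0.12 (0.0339) and MT-TP by 0.92 ± 0.35 (0.0433). The MT-TP call failed without WT clone 2, 3, 4 or 5 (adjusted p 0.0940 to 0.140), in DESeq2 (0.0539) and under library totals (0.0808). The MT-ND5 call failed without WT clone 1 or 4 and under library totals, that of MT-CO1 without WT clone 5 and that of MT-TL1 without WT clone 3. MT-TP was low, at 1.46 to 2.52 CPM under DMSO and 2.29 to 5.08 CPM with the combination. The count was 5 without WT clone 3, 4 or 5, and 13 without A428D clone 1. In the blocked fit it was 18 up and 0 down, beside 35.1% of all genes. With libraries scaled to their totals, which moved the median of all genes by -0.11, it was 5.

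With bexobrutideg and venetoclax 6 of 34 rose and 0 fell in WT cells (21.3% of all genes called), and with pomalidomide and venetoclax 4 of 34 rose and 0 fell (36.8%). MT-RNR2, MT-ND6, MT-TH and MT-TS2 were called in both. MT-CYB, the only mitochondrially encoded subunit of complex III, and MT-TT, for threonine, were called with bexobrutideg and venetoclax (0.23 ± 0.08, adjusted p = 0.0413, and 0.42 ± 0.11, adjusted p = 0.00419). MT-CYB was at 5587 CPM in the shallow library and at 3685 to 4321 CPM in the other 4. Without that library its change had an edgeR adjusted p of 0.0597. The MT-CYB call was kept under 12 of 19 alternatives, with an adjusted p of up to 0.586. It was kept in 7 of the 11 fits that left out a clone. The count with bexobrutideg and venetoclax was 3 without WT clone 1, 2 without clone 4 and 3 without clone 5, and 4 without the shallow library. The count with pomalidomide and venetoclax was 2 without WT clone 4 or clone 5, and 7 with the clone as a block (47.9% of all genes).

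Of the single agents in WT cells, zelebrudomide gave 1 call, MT-RNR2 (6.57% of all genes called, 3 of 34 members at unadjusted p under 0.05). When the clone was a block, 9 of 34 rose (16.2% of all genes): MT-RNR1, MT-ND1, MT-ND2, MT-ND3, MT-ND5, MT-TL1, MT-TN and MT-TC beside MT-RNR2. Bexobrutideg, pomalidomide and venetoclax gave 0 calls each in edgeR and in DESeq2, beside 2.45, 9.99 and 32.8% of all genes called in edgeR, 2.67, 8.11 and 24.7% in DESeq2, and with 6, 0 and 1 of 34 at unadjusted p under 0.05. With the clone as a block, bexobrutideg gave 3 (MT-ND6, MT-TL1 and MT-RNR2, all up, 10.6% of all genes), pomalidomide 0 and venetoclax 2 (MT-TM and MT-TS1, both down, 45% of all genes). Venetoclax had the largest share of all genes called among the 4 single agents, with a median log2 change of -0.07 over the 34 mitochondrial genes and -0.06 over all genes.

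**Figure D3:**
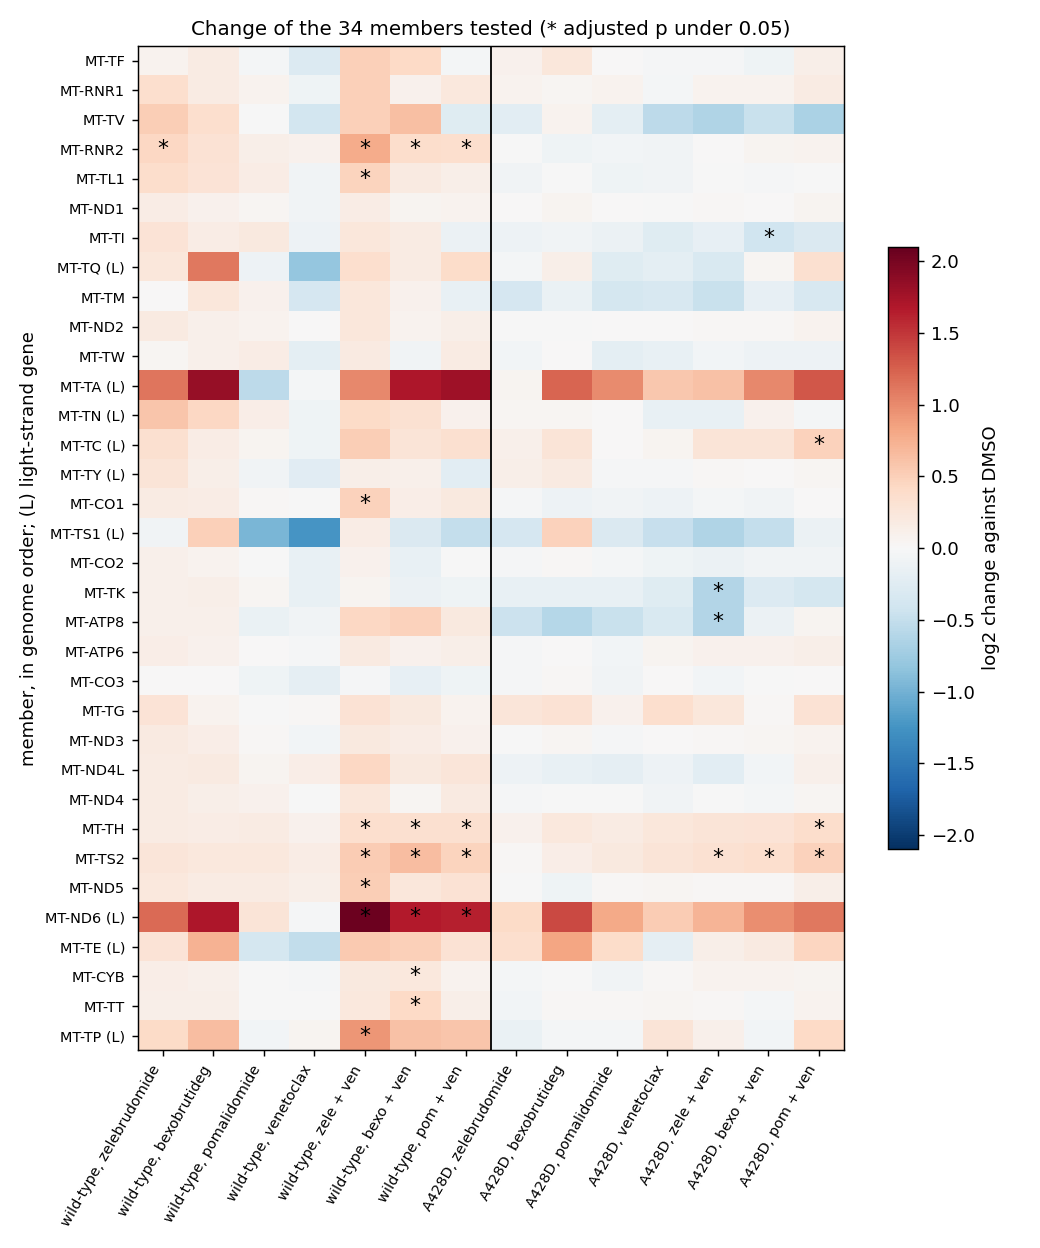
Log2 change against DMSO (colour) of the mitochondrial genes tested (rows, in genome order) for the 7 treatments in each genotype (columns), with an asterisk where the adjusted p was under 0.05. Asterisks are most frequent in the 3 venetoclax combinations of WT cells (8, 6 and 4 of 34). Beside them 23.4, 21.3 and 36.8% of all genes were called, so these counts are near or below the background. Under bexobrutideg, pomalidomide or venetoclax alone 0 stand, beside 2.45, 9.99 and 32.8% of all genes in WT and 0, 8.68 and 16.8% in A428D.

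In A428D cells none of the 4 single agents gave a call in edgeR or DESeq2, beside 2.06% (zelebrudomide), 0% (bexobrutideg), 8.68% (pomalidomide) and 16.8% (venetoclax) of all genes in edgeR, 2.3, 0, 6.95 and 17.2% in DESeq2, and with 1, 3, 1 and 2 of 34 at unadjusted p under 0.05. With the clone as a block, pomalidomide gave 1 (MT-ATP8, down, 16.7% of all genes) and venetoclax 3 (MT-TH and MT-TS2 up, MT-TV down, 30.7%). Zelebrudomide with venetoclax gave 1 up and 2 down of 34 (26.2% of all genes), bexobrutideg with venetoclax 1 up and 1 down (15.7%) and pomalidomide with venetoclax 3 up and 0 down (30.4%). MT-TS2 rose in all 3. The median log2 change of the 34 genes was 0.01, 0.01 and 0.07 for these combinations. The blocked counts were 6, 4 and 5 (38.7, 28.9 and 42.5% of all genes).

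MT-ATP8, which encodes a small membrane subunit of the ATP synthase, fell in A428D cells with zelebrudomide and venetoclax. It was at 419, 302, 341, 270, 443 and 390 CPM under DMSO in clones 1 to 6 and at 316, 260, 207, 204, 317 and 179 CPM with the combination. All 6 clones were lower, and the groups overlapped. The log2 change of MT-ATP8 was -0.62 ± 0.21 (adjusted p = 0.0227), and the adjusted p was 0.0799 without A428D clone 3 and 0.0858 without clone 6. MT-TK, the lysine transfer RNA gene that lies just before MT-ATP8, fell by 0.61 ± 0.16 on the log2 scale (adjusted p = 0.00217). Its values were 14.6, 10.9, 8.25, 8.45, 10.7 and 9.92 CPM under DMSO and 7.79, 9.91, 5.80, 6.84, 7.43 and 5.42 CPM with the combination, lower in 6 of 6 clones, and the call stood under all 19 alternatives. MT-TI, for isoleucine, fell by 0.43 ± 0.13 with bexobrutideg and venetoclax (adjusted p = 0.0233), and this call failed without A428D clone 1, 3, 4, 5 or 6. The count of calls with zelebrudomide and venetoclax was 1 without A428D clone 3. With bexobrutideg and venetoclax it was 0 without clone 3 and 1 without clone 1, 4, 5 or 6.

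MT-TS2, the serine transfer RNA that reads AGY codons, was the gene called most often against DMSO, in all 3 combinations of both genotypes. In WT cells it was at 30.3, 32.4, 33.8, 28.97 and 36.2 CPM under DMSO, at 42.1, 41.3, 42.9, 44.3 and 45.5 CPM with zelebrudomide and venetoclax, at 43.4, 42.7, 77.9, 48.3 and 49.6 CPM with bexobrutideg and venetoclax and at 46.3, 51.0, 42.0, 39.0 and 47.5 CPM with pomalidomide and venetoclax. No treated value lay within the DMSO range, and the 77.9 CPM came from the shallow library of clone 3. The MT-TS2 changes in WT cells were 0.53 ± 0.13, 0.64 ± 0.13 and 0.47 ± 0.12 (adjusted p = 0.00114, 8.11e-05 and 0.00181), each kept under all 19 alternatives. In A428D cells MT-TS2 was at 31.1, 32.0, 18.9, 29.1, 29.5 and 34.6 CPM under DMSO and at 36.1 to 52.6 CPM with pomalidomide and venetoclax, where the change was 0.48 ± 0.11 (adjusted p = 6.43e-04). The other 2 A428D changes, 0.32 ± 0.11 and 0.35 ± 0.11, failed without clone 3 (adjusted p 0.1002 and 0.0515), whose DMSO value of 18.9 CPM was the lowest. MT-TH, the neighbour of MT-TS2 on the genome, was called in the 3 WT combinations (0.33 to 0.35) and in A428D with pomalidomide and venetoclax (0.37 ± 0.11, adjusted p = 0.00869). The WT calls of MT-TH failed without WT clone 1, 4 or 5 with zelebrudomide, without clone 1, 2, 4 or 5 with bexobrutideg and without clone 1 with pomalidomide. MT-TC, the cysteine transfer RNA, was called in A428D with pomalidomide and venetoclax only (0.49 ± 0.19, adjusted p = 0.0466), a call that failed without clone 2, 3, 4 or 5.

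MT-ND6, the complex I subunit encoded on the light strand, varied far more between libraries of the same group than the other messenger RNAs. Around the group means, its spread in the 24 h set was 0.895 (pooled SD of log2 CPM), and that of the other 12 messenger RNAs was 0.134 to 0.380. Only the transfer RNA MT-TA, also on the light strand, was higher, at 0.927. Under DMSO MT-ND6 was at 85.1, 58.6, 77.7, 42.6 and 57.4 CPM in the WT clones and at 48.4, 80.1, 41.6, 42.9, 41.7 and 46.4 CPM in the A428D clones. With zelebrudomide and venetoclax the WT clones were at 89.3, 346, 626, 52.8 and 142 CPM. Clone 3 was highest there, and clone 4 lay within the DMSO range. With bexobrutideg and venetoclax they were at 85.1, 74.0, 471, 369 and 108 CPM, with clones 3 and 4 highest. With pomalidomide and venetoclax they were at 108, 130, 127, 395 and 249 CPM, all above the DMSO range, with clone 4 highest. Single agents also held high values: 381 CPM in WT clone 1 with zelebrudomide, and 382 and 396 CPM in WT clones 1 and 2 with bexobrutideg.

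The 3 WT combinations were called for MT-ND6 against DMSO: 2.05 ± 0.58 (adjusted p = 0.00555), 1.67 ± 0.57 (0.0271) and 1.64 ± 0.57 (0.0179) with zelebrudomide, bexobrutideg and pomalidomide. These MT-ND6 calls were kept under 18, 16 and 17 of 19 alternatives, and each failed when certain clones were left out. Without WT clone 3 the first was 1.45 (adjusted p = 0.0929). The second was 1.45 without WT clone 3 (0.0997), 1.224 without clone 4 (0.169) and 1.38 without the shallow library alone (0.0891). The third was 1.17 without WT clone 4 (0.134) and 1.53 without clone 5 (0.0633). In A428D cells MT-ND6 was not called in any treatment, and its highest values were 298 CPM (clone 4, pomalidomide with venetoclax) and 287 CPM (clone 2, bexobrutideg). The difference in response between genotypes was not called for MT-ND6 either.

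Across the 88 libraries of the 24 h set, deviations of MT-ND6 from its group means were compared with those of the other members. Pearson's r was 0.85 for MT-TA, 0.77 for MT-TE (which directly precedes MT-ND6 on that strand), 0.55 for MT-TS1, 0.50 for MT-TP and 0.44 for MT-TQ, and it was 0.37 for MT-TN, 0.32 for MT-TC and 0.22 for MT-TY, the other light-strand transfer RNAs. Heavy-strand transfer RNAs ran from -0.12 (MT-TK) to 0.42 (MT-TF), with 0.40 for MT-TV and 0.36 for MT-TL1, so the values of the 2 strands overlapped. For the 12 heavy-strand messenger RNAs it was -0.23 to 0.17. With library depth it was -0.40, and with the mitochondrial share -0.06. The points share library, clone and depth, and several of the transfer RNAs are at a few counts, so these values are a description. The part that library depth or antisense reads have in the MT-ND6 spread was not tested.

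Against venetoclax alone, WT cells with zelebrudomide added had 12 of 34 genes up and 0 down (21.2% of all genes called), with a median log2 change of 0.38 against 0.03 over all genes. MT-RNR2 (0.68 ± 0.14, adjusted p = 1.04e-04) and MT-TL1 (0.54 ± 0.13, adjusted p = 0.00129) kept their calls under all 19 alternatives. The others were MT-RNR1 (0.60), MT-CO1 (0.49), MT-ND3 (0.26), MT-CYB (0.22), MT-ND6 (2.08), MT-TF (0.78), MT-TV (0.89), MT-TC (0.61), MT-TS2 (0.38) and MT-TE (1.07). MT-CYB kept its call under 2 and MT-ND3 under 4 of the 19. The count was 4 without WT clone 2, 3 or 4, 3 without clone 5 and 5 without A428D clone 4, while with the clone as a block it was 25 (32.5% of all genes). With libraries scaled to their totals, which moved the median of all genes by -0.16, it was 3. With bexobrutideg added, 5 rose and 0 fell (15.5% of all genes): MT-ND6, MT-CYB, MT-TV, MT-TS2 and MT-TT. That count was 2 without WT clone 3, 4 or 5, and 13 with the block (25.4%), and the MT-TV change went from 1.03 to 0.46 without WT clone 3, whose shallow library held 157 CPM beside 24.8 to 36.5 CPM in the others. With pomalidomide added, 0 were called in edgeR and 1 in DESeq2 (8.41% of all genes in edgeR, 6.79% in DESeq2, 8 of 34 at unadjusted p under 0.05). The block gave 6 (17.2%), and leaving out WT clone 1 gave 2. In A428D cells 0 were called in edgeR and DESeq2 for each of the 3 (1.07, 0 and 7.91% of all genes in edgeR and 1.21, 0 and 6.41% in DESeq2, with 1, 0 and 1 of 34 at unadjusted p under 0.05). With the block the pomalidomide combination had 1, MT-TC (16.3%).

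Against the partner drug alone few genes were called. Adding venetoclax to zelebrudomide gave 0 in WT cells in edgeR and DESeq2 (12.5% of all genes in edgeR, 11.4% in DESeq2, 3 of 34 at unadjusted p under 0.05), and 4 with the block (23.2%): MT-RNR2, MT-CO1, MT-ND5 and MT-TS2. Leaving out WT clone 1 gave 2, and leaving out WT clone 2 or A428D clone 1 gave 1. Adding it to bexobrutideg gave MT-TS2 (0.42 ± 0.13, adjusted p = 0.0134, 18.8% of all genes), which failed without WT clone 1, and 2 with the block (29.6%). The count was also 2 without A428D clone 1, 3 or 4. Adding it to pomalidomide gave MT-TA (2.32 ± 0.83, adjusted p = 0.0365, 20.1% of all genes), which failed without WT clone 2, 4 or 5, and 4 with the block (33.2%). MT-TA was at 0.377, 0.132, 0.311, 1.36 and 0.268 CPM with pomalidomide and at 1.03, 1.16, 0.580, 6.63 and 3.53 CPM with both. In A428D cells MT-TK fell with venetoclax added to zelebrudomide (-0.46 ± 0.16, edgeR adjusted p = 0.0291, 20.7% of all genes). This call was kept under 12 of 19 alternatives and in 5 of the 11 fits that left out a clone. The fits that lost it included those without A428D clone 3, 4, 5 or 6. A second gene joined it without WT clone 1 or A428D clone 1 or 2. The block gave 3 (33.8%). The other 2 A428D comparisons gave 0 in edgeR and DESeq2 (19.7% of all genes in edgeR and 17.1% in DESeq2 for bexobrutideg, 17.1 and 14.7% for pomalidomide, with 2 and 3 of 34 at unadjusted p under 0.05), and 4 and 7 with the block (32.2 and 29.7%). For pomalidomide leaving out A428D clone 1 gave 5, and clone 3 or 4 gave 1.

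The test of the difference in response between genotypes found 2 of 34 genes, both with zelebrudomide and venetoclax and both with a lower change in A428D (3.32% of all genes called). For MT-RNR2 the difference was -0.76 ± 0.18 (log2, adjusted p = 0.00729), and it passed under all 19 alternatives, with values from -0.82 to -0.58. In A428D cells MT-RNR2 was at 25224, 20638, 22036, 16709, 21875 and 22035 CPM under DMSO and at 28118, 24360, 23845, 19369, 20371 and 20110 CPM with the combination, higher in 4 of 6 clones, beside the 5 of 5 in WT. For MT-ATP8 the difference was -1.06 ± 0.31 (adjusted p = 0.0388). WT clones had 341, 426, 344, 318 and 444 CPM of MT-ATP8 under DMSO and 518, 494, 537, 387 and 431 CPM with the combination, higher in 4 of 5, where all 6 A428D clones were lower. The MT-ATP8 call was lost when any WT clone or A428D clone 2, 3, 4, 5 or 6 was left out (adjusted p 0.0596 to 0.108), and under library totals (0.0901). The median difference over the 34 genes was -0.41, against -0.02 over all genes, with 0 of 34 above 0.

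With the clone as a block, the difference in response to zelebrudomide and venetoclax was called for 10 of 34 genes, all lower in A428D (11.6% of all genes). These were MT-RNR1, MT-RNR2, MT-CO1, MT-ND5, MT-ND4L, MT-ATP8, MT-TL1, MT-TV, MT-TM and MT-TK. For the other 6 treatments 0 were called in edgeR and DESeq2. The background was 1.04% (zelebrudomide), 0.615% (bexobrutideg), 0% (pomalidomide and venetoclax), 1.94% (bexobrutideg with venetoclax) and 0.00668% (pomalidomide with venetoclax) in edgeR. In DESeq2 it was 1.53, 0.958, 0, 0, 2.71 and 0.00183% in the same order, and 3, 2, 0, 0, 3 and 0 of 34 were at unadjusted p under 0.05. The block gave 2 for zelebrudomide (MT-TL1 and MT-RNR2, 6.76% of all genes), 1 for bexobrutideg (MT-RNR2, 5.03%) and 2 for bexobrutideg with venetoclax (MT-TV and MT-TT, 7.45%), all lower in A428D. Leaving out A428D clone 1 gave 1 for bexobrutideg with venetoclax.

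The nuclear-encoded partners of these genes gave more calls than the mitochondrially encoded subunits with venetoclax. In WT cells with venetoclax alone, 45 of 75 nuclear subunits of complexes I, III, IV and V rose and 0 fell, with a median log2 change of 0.31, beside 32.8% of all genes called and a median of -0.06 over all genes. By complex, 25 of 37 rose in complex I, 5 of 9 in complex III, 5 of 11 in complex IV and 10 of 18 in complex V. Of the 13 mitochondrial messenger RNAs in the same complexes, 0 were called, and their changes ran from -0.19 to 0.13. NDUFS6, an accessory subunit of complex I, rose by 0.76 ± 0.11 (edgeR adjusted p = 1.92e-07). COX7B, a small subunit of complex IV, rose by 0.63 ± 0.17 (adjusted p = 0.00244), and ATP5MC1, which encodes the c subunit of the ATP synthase ring, by 0.81 ± 0.17 (adjusted p = 8.11e-05). Under every alternative tried, the count of nuclear subunits in WT cells with venetoclax stayed within 1.5 times of 45. The difference between nuclear and mitochondrial subunits was not itself tested.

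**Figure D4:**
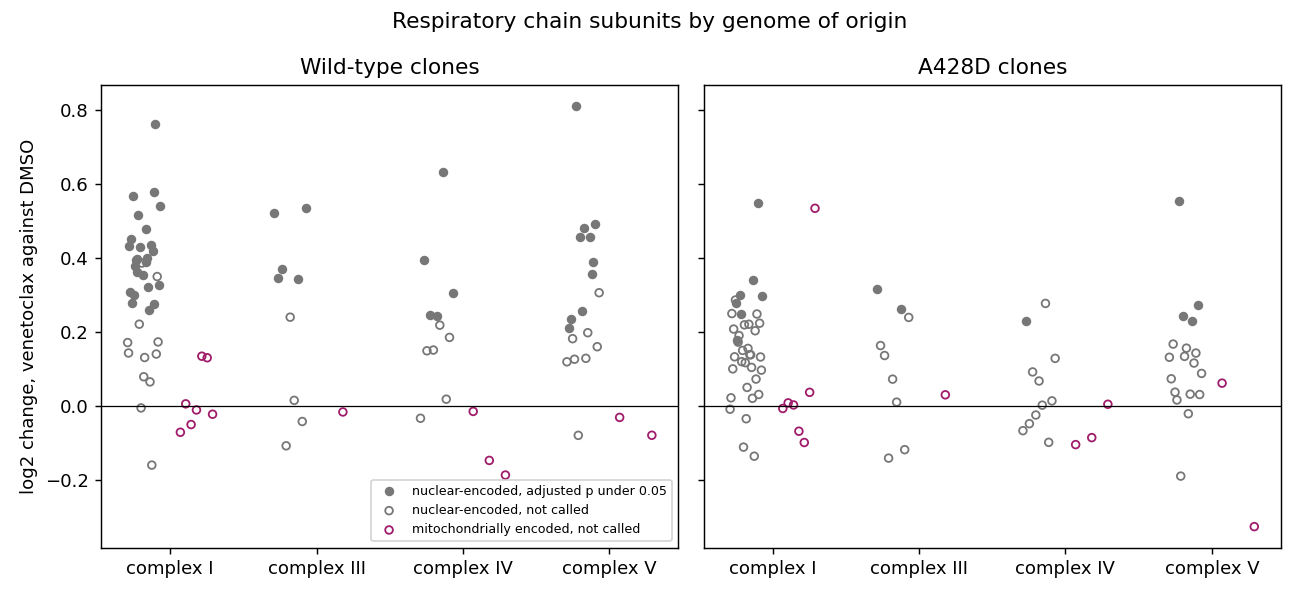
Log2 change with venetoclax against DMSO (vertical axis) for subunits of complexes I, III, IV and V (horizontal axis), in WT (left) and A428D clones (right). Each point is a subunit, grey for nuclear and magenta for mitochondrially encoded, filled where the adjusted p was under 0.05. In WT cells 45 of 75 grey points are filled and the magenta points, 0 of them filled, lie between -0.19 and 0.13.

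In A428D cells with venetoclax alone, 14 of 75 nuclear subunits rose and 0 fell (median 0.13). This count was near the background of 16.8% of all genes called. Of the 13 mitochondrial messenger RNAs 0 were called, with changes from -0.33 to 0.53. The count of 14 was 9 without A428D clone 2 or 4, 21 up and 1 down without WT clone 3, and 25 under library totals. It was 22 up and 1 down without the shallow library. With the clone as a block it was 23 up and 2 down (30.7% of all genes). In the WT combinations of venetoclax with zelebrudomide, bexobrutideg and pomalidomide, 58, 49 and 54 of 75 nuclear subunits rose and 0 fell, with medians of 0.47, 0.44 and 0.38, beside 23.4, 21.3 and 36.8% of all genes called. The 13 mitochondrial messenger RNAs gave 3, 2 and 1 calls there. In the A428D combinations 34, 13 and 40 of 75 rose and 0 fell, beside 26.2, 15.7 and 30.4% of all genes, so the second count was near the background. The second of these was 24 up and 1 down without WT clone 3, 20 up without WT clone 4 or A428D clone 5, 28 up and 1 down without the shallow library, 25 with pseudogene counts added to the mitochondrial genes, and 33 up and 1 down with the block (28.9%). The first was 50 up and 2 down with the block (38.7%), and the third was 26 without A428D clone 2. Zelebrudomide, bexobrutideg and pomalidomide alone gave 1, 0 and 0 calls among the 75 in WT and 0 each in A428D, where DESeq2 gave 2 for pomalidomide in WT and otherwise no call beside an edgeR count of 0. The zelebrudomide count in WT was 0 without WT clone 1, 2, 3 or 4, 2 without A428D clone 1, 5 without the shallow library, and 18 up and 0 down with the block (16.2%). These comparisons share their DMSO libraries.

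The nuclear genes that maintain, transcribe, process, stabilise and translate the mitochondrial genome were also counted, as 90 genes tested from 5 lists. With venetoclax alone 41 rose and 3 fell in WT (median 0.30, beside 32.8% of all genes), and 28 rose and 3 fell in A428D (median 0.19, beside 16.8%). In WT cells with venetoclax these included MRPL12, a mitochondrial ribosomal protein that also binds the mitochondrial RNA polymerase (1.04 ± 0.16, edgeR adjusted p = 5.81e-07), and SLIRP, which stabilises mitochondrial messenger RNAs with LRPPRC (0.82 ± 0.11, adjusted p = 3.85e-08). MRM1, a methyltransferase of the MT-RNR2 product, rose by 0.95 ± 0.18 (adjusted p = 1.49e-05), and SSBP1, the single-strand binding protein of mitochondrial DNA replication, by 0.62 ± 0.09 (adjusted p = 9.73e-08). RRM2B, a ribonucleotide reductase subunit that supplies deoxynucleotides, fell by 0.59 ± 0.10 on the log2 scale (adjusted p = 7.62e-06). With zelebrudomide and venetoclax in WT cells, 18 of the 90 rose and 5 fell (median 0.12, beside 23.4% of all genes). The share called was therefore close to the background. The count was 10 up and 4 down without WT clone 4, and 26 up and 9 down with the block (35.1%). MRM1 (0.66 ± 0.19, adjusted p = 0.00745) and TRMT10C, a subunit of the mitochondrial RNase P (0.47 ± 0.10, adjusted p = 2.55e-04), were among those that rose. With zelebrudomide alone 0 of 90 rose and 6 fell in WT, a share close to the 6.57% of all genes called. That count was 3 without WT clone 1, 2 or 4 and 2 without clone 5. GABPA and GABPB1, the subunits of a factor that activates nuclear genes for mitochondrial proteins, fell by 0.55 and 0.51 on the log2 scale.

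Between the genotypes under DMSO, 0 of 31 genes were called in edgeR and DESeq2 (7.13% of all genes in edgeR, 8.6% in DESeq2, 0 of 31 at unadjusted p under 0.05), and 2 when A428D clone 1 was left out. In that comparison 21 of 75 nuclear subunits were higher in A428D and 0 lower, but the count was 3, 9, 3 and 4 without WT clones 1 to 4 in turn, 39, 43, 8, 10 and 6 without A428D clones 1, 3, 4, 5 and 6, and 3 with 1 lower under library totals. In the untreated libraries 0 of 31 were called in both tools (5.9% of all genes in edgeR, 7.06% in DESeq2, 2 of 31 at unadjusted p under 0.05). The A428D clones differed among themselves. MT-RNR1 under DMSO was at 5275 and 4453 CPM in A428D clones 1 and 2 and at 3019 to 3346 CPM in clones 3 to 6, beside 3951 to 4999 CPM in WT. The asparagine transfer RNA MT-TN was at 9.90 and 11.3 CPM in A428D clones 1 and 2 and at 2.35 to 5.15 CPM in the others, beside 6.34 to 11.4 CPM in WT. The untreated parental line had a mitochondrial share of 9.65%, within the range of the untreated clones, and MT-TS2 at 10.5 CPM, below their 13.9 to 17.7 CPM.

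The untreated libraries differed from the DMSO libraries of the same clones in most mitochondrial genes. In WT clones 10 of 33 genes were higher and 15 lower in the untreated libraries (72% of all genes called), and in A428D clones 12 and 15 (71%), so the share called was near the background. The untreated libraries form a set of their own with deeper sequencing, and set, depth and exposure to DMSO cannot be told apart. The summed share was 10.5 ± 0.732% in the untreated WT libraries (SD, n = 5), 2.21 points above DMSO, and 10.1 ± 0.711% in the untreated A428D libraries (SD, n = 6), 2.66 points above, higher in 11 of 11 clones (two-sided exact permutation p = 0.00794 and 0.00216, adjusted 0.0587 for both, the smallest p that the groups allow).

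Transfer RNAs and messenger RNAs mostly went in opposite directions between these sets. Summed transfer RNA was 276 ± 13.4 CPM under DMSO and 158 ± 11.2 CPM untreated in WT (SD, n = 5 each), and 245 ± 45.0 and 149 ± 14.2 CPM in A428D (SD, n = 6 each). The 4 transfer RNAs with the largest changes were light-strand genes: MT-TN, MT-TC and MT-TY from the cluster before MT-CO1, and MT-TQ, which lies before MT-ND2. MT-TN was at 10.2, 6.34, 7.57, 6.497 and 11.4 CPM in the WT DMSO libraries and at 0.094, 0.173, 0.083, 0.080 and 0.338 CPM untreated, a log2 change of -5.84 in WT and -4.71 in A428D. The untreated values of MT-TN are 1 to a few counts per library. MT-TQ changed by -4.11 and -3.75, MT-TC by -3.04 and -3.03 and MT-TY by -2.66 and -2.60 in WT and A428D. Light-strand MT-TP changed less than these 4, by -1.32 and -1.36, as did MT-TE, called in WT only (-1.06). Heavy-strand transfer RNAs also changed less than these 4, and not all in 1 direction. MT-TV, MT-TI, MT-TW, MT-TL1, MT-TS2 and MT-TT were lower by 0.97 to 1.97 on the log2 scale, whereas MT-TF (1.12 and 1.21) and MT-TD (1.88 and 2.28) were higher.

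**Figure D5:**
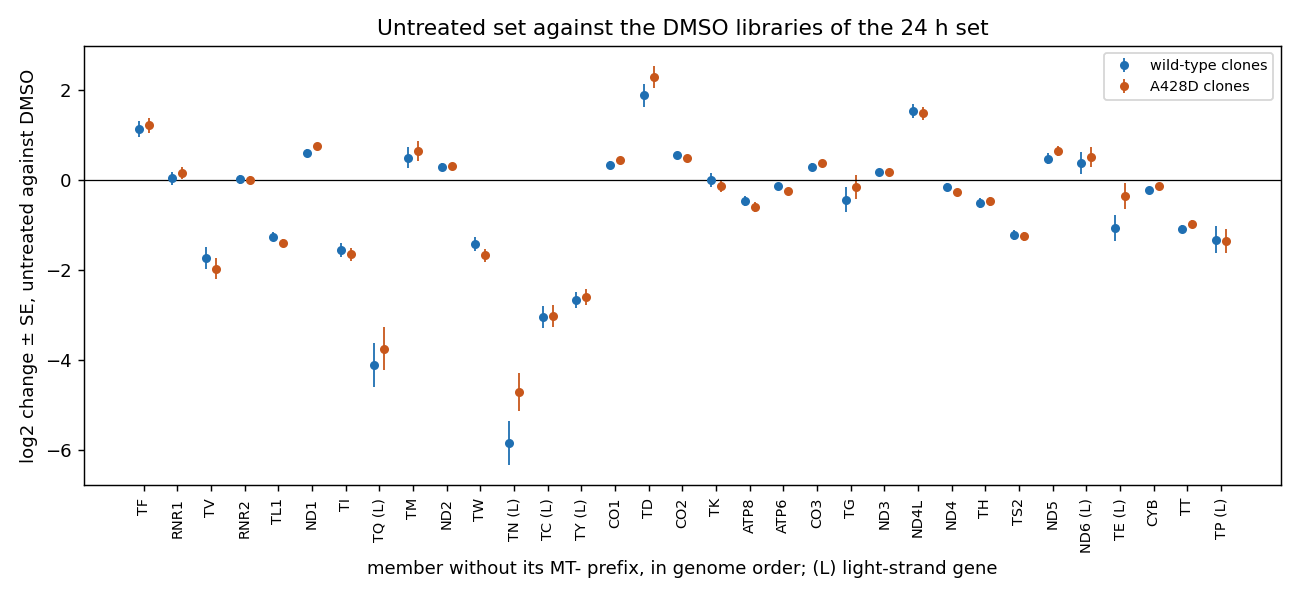
Log2 change of the untreated against the DMSO libraries (vertical axis, points with SE bars) for the 33 genes tested, in genome order (horizontal axis), in WT and A428D clones. MT-TN is lowest (-5.84 in WT and -4.71 in A428D), and MT-TD (1.88 and 2.28) and MT-ND4L (1.53 and 1.48) are the highest.

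Among the messenger RNAs, MT-ND4L was higher by 1.53 in WT and 1.48 in A428D untreated, at 201 ± 25.7 CPM under DMSO and 669 ± 89.8 CPM untreated in WT (SD, n = 5 each). MT-ND1, MT-CO2, MT-ND5, MT-CO1, MT-CO3, MT-ND2 and MT-ND3 were also higher in both genotypes, with the largest of these for MT-ND1, at 0.61 in WT and 0.75 in A428D. With pseudogene counts added, the MT-ND1 changes were 0.20 and 0.32, still called. MT-ATP8 was lower in both (-0.46 and -0.60). MT-CYB was lower in WT (-0.22), and MT-ND4 (-0.27) and MT-ATP6 (-0.25) in A428D. With libraries scaled to their totals, which moved the median of all genes by 0.20 in WT and 0.29 in A428D, the changes of MT-ND4 and MT-ATP6 in A428D became 0.02 and 0.04 and were not called, nor was MT-CYB in WT (-0.02, adjusted p = 0.822). In WT cells MT-CYB was also not called without the filter on low counts (adjusted p = 0.0661). The MT-ND3 changes were small (0.17 in both), and their calls failed in WT without WT clone 1, 3, 4 or 5 or A428D clone 4 or 6, and in A428D without A428D clone 2, 3 or 4. Under library totals the MT-ATP8 change was -0.26 in WT, not called (adjusted p = 0.0527), and -0.31 in A428D, still called. MT-ND6 was higher in A428D (0.51), a call that failed under 5 of 17 alternatives. MT-RNR1 and MT-RNR2 were not called in either genotype. Nor were MT-ND4, MT-ATP6 and MT-ND6 in WT, or MT-CYB in A428D.

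Shares within the mitochondrial genome do not depend on the scaling to nuclear genes and show unequal change only. A gene's share of the summed mRNA and rRNA counts was tested against DMSO by the two-sided exact permutation test (15 genes, 14 treatments). Of these 210 exact permutation tests, 41 had unadjusted p under 0.05, 0 passed after adjustment, and the smallest adjusted p was 0.0794. With 5 WT libraries against 5, the exact permutation test cannot give a p below 0.00794. After adjustment over 210 tests, even WT groups that did not overlap could therefore fail, so 0 passing does not show an unchanged balance. With zelebrudomide and venetoclax in WT cells, 11 of 15 genes were at unadjusted p under 0.05 by this exact permutation test. In this group MT-RNR2 held 39.1% of the summed mRNA and rRNA counts, against 29.7% under DMSO. MT-CO3 held 16.1% against 21.5% and MT-CO2 4.52% against 5.54%.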

How the data were processed

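The authors deposited 1 table of unnormalised values, each the estimated count of a gene, for 78894 gene identifiers and 92 spike-in rows in 100 libraries. Per the submitters' processing notes, STAR 2.7.11, featureCounts of Subread 2.1.1, SAMtools 1.22.1, fastp 0.24.0, MultiQC 1.32, FastQC 0.12.1 and edgeR were used, on GRCh38. The annotation release, strand setting and treatment of duplicates are not given in the sources used here. Per the labels' protocols, cells were lysed in a DNA/RNA preservative, concentrations were evened out, and poly(A) RNA was reverse transcribed, tagmented and amplified.

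Here the estimated counts were rounded to whole numbers, which changed their sum by -0.00678%. A library's CPM and its mitochondrial share use its total gene count, without spike-ins. The test of genes was the robust quasi-likelihood test of edgeR 4.0.16 under R 4.3.3 (TMM scaling, filterByExpr at its minimum count, 10, and total, 15, Benjamini-Hochberg over all genes tested). The 24 h comparisons came from 1 fit of all 88 libraries with the group as term. The genotypes were compared in fits of the 11 DMSO and the 11 untreated libraries, and the untreated with the DMSO libraries in a fit of these 22. Shares were compared by two-sided exact permutation tests. On data simulated for 1 comparison of the 24 h set, 99.5% of 200 genes changed by a fold of 2 were called, as were 9 unchanged genes, among 13286 genes. This simulation used the same dispersion for all genes and no clone effect, and changed only well-counted genes. It does not give the power for smaller changes, variable genes or genes at a few counts. Replicates are single-cell clones of 1 line, and every clone received every condition, so the clone pairs libraries by design. Over the 500 most variable genes, deviations from group means correlated between libraries of the same clone with a median r of 0.63 (0.299 to 0.865 by clone), and -0.163 between clones. Alternatives were DESeq2 1.42.0, scaling on nuclear genes, library totals, no filter, the clone as a block, only the groups compared, and leaving out each clone or the shallowest library. Adding pseudogene counts and taking the ribosomal RNAs alone were chosen after seeing the data.

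The genes named are all MT- rows. Of nuclear lists, counts and medians are given, with at most 3 genes per list, those called with the largest change. The genes and lists were chosen with earlier results of these data known. Coordinates and sequences are from GRCh38 and GENCODE v29.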

Additional observations from a re-analysis of the deposited data

Results flagged for a closer look

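In the response to zelebrudomide with venetoclax, 2 mitochondrial genes differed between genotypes by the test of the difference itself (3.32% of all genes called). They were MT-RNR2 (A428D minus WT, log2 -0.76) and MT-ATP8 (-1.06). The MT-RNR2 call was kept under all 19 alternatives. The MT-ATP8 call was kept under 8 of 19, and in 1 of the 11 fits that left out a clone. The rRNA share, a split chosen after seeing the data, also differed between genotypes in its response, by the exact permutation test with adjustment. The differences (A428D minus WT) were -0.687 points with zelebrudomide, -1.42 points with zelebrudomide and venetoclax, and -0.517 points with pomalidomide and venetoclax.

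In 270 groups of values (15 measures, mostly CPM of genes called in a treatment, in groups of 5 or 6 libraries), the highest or lowest library was checked for a gap to the others too wide for Dixon's 95% limit. This occurred in 26, where chance gives about 1 in 20 groups.

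The mitochondrial share stood apart in WT clone 2 with zelebrudomide (10.5%, group median 8.90%) and with pomalidomide (8.98%, median 8.23%). It was low in the shallow library of WT clone 3 with bexobrutideg and venetoclax (6.24%, median 9.39%). That library also had low MT-RNR2 (21979 CPM) and high MT-ATP8 (931), MT-TS2 (77.9) and MT-TT (46.1 CPM).

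WT clone 2 with zelebrudomide also had high MT-RNR2 (41421 CPM) and MT-CO1 (1684 CPM), and WT clone 1 with zelebrudomide had high MT-ND6 (381 CPM) and MT-TP (5.95 CPM). High MT-TP also stood out in WT clone 4 with bexobrutideg and venetoclax (4.94 CPM) and with pomalidomide and venetoclax (4.37 CPM). MT-ND6 was high in WT clone 4 with pomalidomide (144 CPM), in A428D clone 2 under DMSO (80.1 CPM) and in A428D clone 4 with pomalidomide and venetoclax (298 CPM).

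A428D clone 1 had high MT-CO1 with zelebrudomide (1788 CPM) and high MT-ATP8 (383 CPM) and MT-TT (31.1 CPM) with pomalidomide. MT-TS2 was low in A428D clone 3 under DMSO (18.9 CPM) and high in untreated A428D clone 2 (17.7 CPM). Among the WT clones, MT-TL1 was low in clone 3 under DMSO (64.6 CPM) and high in clone 1 with venetoclax (95.2 CPM). MT-ND5 (793 CPM, clone 2) and MT-TC (10.1 CPM, clone 1) were high with bexobrutideg and venetoclax, and MT-TT was high in clone 2 with pomalidomide and venetoclax (30.1 CPM).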

How the results depend on the processing

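Scaling on nuclear genes moved no count of calls by over 1.5 times in the 37 comparisons. The cause of the changes below was not tested. Shares of all genes called are given in this report only for the fit with the group as term, the clone block and DESeq2. Counts under the other settings have no background beside them and show only how calls moved with the setting. With the clone as a replicate block the counts of genes called against DMSO were, for zelebrudomide, bexobrutideg, venetoclax, and zelebrudomide and pomalidomide each with venetoclax, 9, 3, 2, 18 and 7 in WT. In A428D they were 1, 3, 6, 4 and 5 for pomalidomide, venetoclax and the 3 combinations. Against venetoclax alone the block gave 25, 13 and 6 in WT and 1 in A428D with pomalidomide. Against the partner drug it gave 4, 2 and 4 in WT and 3, 4 and 7 in A428D. For differences in response it gave 2 (zelebrudomide), 1 (bexobrutideg), 10 and 2 (zelebrudomide and bexobrutideg with venetoclax). It ended no call of a named gene. The summed mitochondrial share had no call that the pairing could end. When signs were flipped within clones, WT comparisons with 5 of 5 clones higher had p = 0.0625 by this exact test. No WT comparison of the share could therefore pass.

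Without the filter on low counts, which adds genes to the test, the counts against DMSO were 4, 3 and 1 in WT for zelebrudomide, bexobrutideg and venetoclax, 2 in A428D for each single agent and 6 for pomalidomide with venetoclax. Against single agents they were 1, 2 or 3 in 8 comparisons, and for differences in response 2, 1, 5 and 2. In fits of only the groups compared, WT counts were 9, 2, 20, 3 and 9 against DMSO (zelebrudomide, venetoclax and the 3 combinations), 25, 1 and 5 against venetoclax and 3, 0 and 3 against the partner. Under library totals they were 0 (zelebrudomide), 5 and 3 (zelebrudomide with venetoclax against DMSO and against venetoclax) in WT, 2 (venetoclax) and 2 (zelebrudomide with venetoclax against zelebrudomide) in A428D, and 1 for the difference in response to zelebrudomide with venetoclax. With pseudogene counts added, 1 (A428D, venetoclax), 2 and 2 (venetoclax added to bexobrutideg in WT and to zelebrudomide in A428D) were called. DESeq2 gave 1 for bexobrutideg with venetoclax in A428D and 1 for pomalidomide with venetoclax against venetoclax in WT. Without the shallowest library, counts were 1 (pomalidomide with venetoclax against venetoclax), 1 and 0 (venetoclax added to zelebrudomide and bexobrutideg) in WT and 2 in A428D (venetoclax added to zelebrudomide). Counts of calls over the nuclear lists moved by over 1.5 times in 50 (subunits) and 48 (maintenance and expression) of 282 recomputations each. Beyond those in the report, in fits of only the groups compared, the subunits called were 28 for WT with bexobrutideg and venetoclax and 26 for zelebrudomide, and the genes of maintenance and expression 6 for the former.

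With ribosomal RNAs only, chosen after seeing the data, the share passed in WT for zelebrudomide with venetoclax against DMSO and against venetoclax (1.58 and 1.35 points), for pomalidomide with venetoclax against DMSO, venetoclax and pomalidomide (0.806, 0.567 and 0.603 points), and for differences in response to zelebrudomide, zelebrudomide with venetoclax and pomalidomide with venetoclax (-0.687, -1.42 and -0.517 points). On a log2 scale against nuclear counts, the difference in response of the share passed for zelebrudomide (-0.208, adjusted p = 0.04) and for its combination with venetoclax (-0.317, adjusted p = 0.04). Untreated against DMSO in A428D, MT-ND4 and MT-ATP6 reversed under library totals (0.0216 and 0.0424).

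Leaving out 1 clone at a time, counts against DMSO ranged from 0 to 2 (zelebrudomide), 0 to 1 (bexobrutideg; venetoclax), 5 to 13, 2 to 6 and 2 to 5 (the 3 combinations) in WT. In A428D they ranged from 0 to 1 (venetoclax), 1 to 4 and 0 to 3 (zelebrudomide and bexobrutideg with venetoclax). Against venetoclax in WT they were 3 to 12, 2 to 6 and 0 to 2. Against the partner they were 0 to 2, 0 to 2 and 0 to 1 in WT, and 0 to 2 (zelebrudomide) and 0 to 5 (pomalidomide) in A428D. Differences in response ranged from 1 to 2 (zelebrudomide with venetoclax) and 0 to 1 (bexobrutideg with venetoclax), and the genotypes under DMSO from 0 to 2. The clones are named in the report. Depth limits transfer RNAs at a few counts per library.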
